A study of Mus musculus with 32 samples.

Results

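The domains described here are the 300 largest stretches of acetylated chromatin that B3 cells carried before Ikaros was induced. B3 is a mouse pre-B cell line. The cells were transduced by retrovirus with Ikaros (IKZF1) carrying an HA tag and an ERt2 domain, a receptor domain used to make nuclear entry depend on 4-hydroxytamoxifen (4-OHT). HA-Ikaros peaks were nonetheless called in the untreated cells. All cells of the series carry this construct, and the endogenous Ikzf1 gene is present too, so the HA antibody reads the added protein only. Groups were untreated cells (0 h) and cells given 500 nM 4-OHT for 30 min, 1 h or 2 h. H3K27ac, HA-Ikaros and CHD4 were mapped by chromatin immunoprecipitation and sequencing (ChIP-seq) in 2 replicates per time, which gave 24 lists of peaks, and the labels do not say whether replicates were separate cultures. The question was how acetylation, Ikaros and CHD4 inside the largest acetylated domains changed over the first 2 h.

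Members were chosen by their H3K27ac at 0 h. The peak lists of the 2 untreated libraries were merged, and 18958 of 24944 merged regions held a peak in both and were kept. Kept regions separated by no more than the default stitching distance of ROSE, the program the study used to call super-enhancers, were joined into 12231 domains. The domains were ordered by the number of bases in their kept regions, called kept bases below, and the first 300 of the 12231 were taken. Rank 300 held 13991 kept bases and rank 301 held 13977, so the border falls between near-equal neighbours. Because the 0 h H3K27ac lists chose the members, 0 h values of this mark are given as a description and enter no test of its change. Kept bases, which come from these lists, are the divisor of the density ratios below.

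H3K27ac is an acetyl mark on histone H3 that is found at active promoters and enhancers. Long clusters of such elements, often called super-enhancers, lie near genes that define a cell type, among them lineage transcription factors and receptors. Ikaros is a zinc finger protein that binds DNA and is needed for lymphocyte development, and it restrains pre-B cell growth. CHD4 is the remodelling ATPase of NuRD, a complex that also carries histone deacetylases and that associates with Ikaros.

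The sites below are shown because they lie in the domains to which the results return. They are the regulators Pax5, Irf8 and Ikzf1, the receptor components Igll1 and Vpreb1, the quickly repressed genes Itga5, Endod1 and Dntt, as the study named them, and a pair of the largest domains, far downstream of Myc and at Dusp6. Each window spans 101 bases of the mouse genome (GRCm38, mm10 coordinates, plus strand) around an Ikaros summit of the first 2 h replicate. The summit was the one with the highest fold rank over both 2 h lists among windows free of annotated UTRs. The domains were picked after their values were seen. Capitals mark the core words GGAA and TTCC, and GGGA and TCCC, which are each other's reverse complements and may overlap, so both strands are read.
Domain far downstream of Myc, chr15:63657876-63657976, intron of a noncoding gene: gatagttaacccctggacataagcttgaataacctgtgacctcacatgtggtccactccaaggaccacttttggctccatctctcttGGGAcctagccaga
Dusp6, chr10:99261822-99261922, intergenic: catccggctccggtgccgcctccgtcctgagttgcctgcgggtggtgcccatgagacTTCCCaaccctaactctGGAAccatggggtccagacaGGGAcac
Pax5, chr4:44711031-44711131, intergenic, upstream of the gene: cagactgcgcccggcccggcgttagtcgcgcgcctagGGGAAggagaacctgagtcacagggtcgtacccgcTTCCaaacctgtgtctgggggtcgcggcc
Irf8, chr8:120747543-120747643, intron: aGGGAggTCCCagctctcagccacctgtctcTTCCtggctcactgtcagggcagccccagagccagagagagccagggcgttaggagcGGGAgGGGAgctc
Ikzf1, chr11:11689313-11689413, intron: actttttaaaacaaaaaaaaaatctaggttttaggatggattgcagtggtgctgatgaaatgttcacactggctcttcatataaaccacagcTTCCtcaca
Itga5, chr15:103377062-103377162, intergenic: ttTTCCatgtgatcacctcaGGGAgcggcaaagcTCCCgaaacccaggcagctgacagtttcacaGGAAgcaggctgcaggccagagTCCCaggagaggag
Endod1, chr9:14365634-14365734, intron: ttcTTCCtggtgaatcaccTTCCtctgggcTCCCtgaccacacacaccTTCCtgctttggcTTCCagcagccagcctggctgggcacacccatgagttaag
Igll1 and Vpreb1, chr16:16865269-16865369, intergenic: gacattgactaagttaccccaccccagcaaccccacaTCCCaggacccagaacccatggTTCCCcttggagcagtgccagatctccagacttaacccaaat
Dntt, chr19:41039256-41039356, intron: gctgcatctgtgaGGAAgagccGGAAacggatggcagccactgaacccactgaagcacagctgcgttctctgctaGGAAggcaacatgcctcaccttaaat

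All 9 windows held at least 1 core word, and the number ranged from 1 at Ikzf1 and in the domain far downstream of Myc to 5 at Irf8, Itga5 and Endod1. A window of this length usually holds one. Over all Ikaros summits inside the 300 domains, the share of windows with a core word ran from 92.6% to 98.5% across the 8 Ikaros libraries. In windows of the same length 450 bases to one side it ran from 84.5% to 86.6%. The mean number of words per window was 4.19 and 4.2 at 0 h, 3.45 and 3.48 at 30 min, 3.35 and 3.23 at 1 h, and 2.95 and 3.11 at 2 h. The 0 h libraries were the richest in these words, and no 0 h value overlapped a later one. They hold fewer Ikaros peaks than the libraries of 1 h and 2 h, but the shortest list, the second at 30 min, gave 3.48. Summits outside the 300 domains gave 4.15 in both 0 h libraries and 2.96 and 3.17 at 2 h, so the decline was not particular to the large domains. Inside the domains, control words, the core words spelled backwards, averaged 2.99 and 2.92 at 0 h and 2.7 and 2.64 at 2 h. Core words in windows 450 bases to either side averaged 2.34 and 2.36 at 0 h and 2.32 and 2.29 at 2 h. A word in a window is a description of the sequence and not a shown binding site.

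Fold enrichment can depend on the depth of a library, so each site was placed by the percentile rank of its fold among the Ikaros peaks of its own list. The summits were chosen by their rank in the 2 h lists and the lists differ in length, so the ranks describe each list and no change is read from them. The Itga5 site stood at 98.3 and 99 at 0 h and at 71 and 35.4 at 2 h, and the Endod1 site at 99.3 and 99.7 and at 97.5 and 83.2. At Irf8 the ranks were 90.8 and 94 at 0 h and 76.4 and 81.5 at 2 h. Between Igll1 and Vpreb1 they were 74.7 and 60.4 at 0 h and 86.3 and 99.7 at 2 h, and far downstream of Myc 56.7 and 80.8 and then 82.5 and 93.8. At Dusp6 they were 94.3 and 98.9 at 0 h and 97.5 and 98.9 at 2 h, and at Pax5 64.3 and 87.3 and then 86.2 and 98.3. At Dntt they were 23.5 and 45.9 at 0 h and 42.4 and 63.8 at 2 h. The Ikzf1 site, called in 1 of the 0 h lists, stood at 55.2 there and at 68.5 and 90.9 at 2 h. The Ikzf1 site was called in 6 of the 8 Ikaros lists and the other printed sites in all 8.

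The 300 domains were long, and most of their regions lay away from promoters. They held 6.41 Mb of kept bases, which is 15.5% of all kept bases, in 1694 regions. Kept bases per domain ran from 13991 to 76952 with a median of 18227, and the span ran from 14.3 to 135 kb with a median of 35.2 kb. A domain held a median of 5 regions (range 1 to 21), and 5 domains were a single unbroken region. Of the 1694 regions, 34.8% lay within 1 kb of a transcription start site (TSS), against 42.4% in the next 300 domains and 55.7% in all others. CpG dinucleotides were also sparser, at 16.9 per kb in the kept regions of the large domains, 20.3 in the next 300 and 28.2 in all others. A total of 475 protein-coding genes had a TSS inside a domain, and 74 domains held none.

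**Figure D1:**
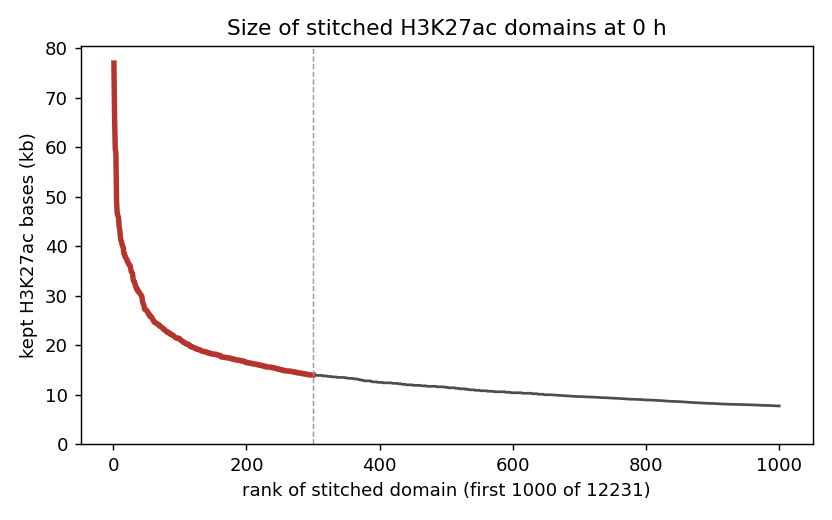
Kept H3K27ac bases (kb) of the first 1000 of 12231 stitched domains at 0 h, in rank order. The thick line marks the 300 domains described, which fall from 77 to 14 kb with no step at rank 300 (dashed line).

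The labelled cell type was checked on marker promoters. An H3K27ac peak lay within 1 kb of a TSS in both 0 h lists at 11 of 12 pre-B markers, with Rag1 the exception. Of the T cell markers 1 of 6 (Cd3d) had one, of the erythroid markers 2 of 5 (Klf1 and Hbb-bs), and of the myeloid (6) and hepatocyte (3) markers none. Mean coverage, recovered from the lists, was 3.75 to 4.34 fragments per base in the H3K27ac libraries. For Ikaros it was 3.59 and 3.13 at 0 h and 1.98 to 2.85 later, and for CHD4 it is unknown. Each list was called on its own library, so a feature missing from a list was below threshold there and is not shown to be absent.

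The domain with the most kept bases held no protein-coding TSS. It spanned chr15:63595378-63698507, far downstream of Myc, the cell growth regulator, and its nearest protein-coding TSS, of Gsdmc, was 110252 bp away. It held 76952 kept bases in 17 regions, none of them at a promoter. Its H3K27ac peaks covered 74608 and 69561 bases at 0 h, 77016 and 68285 at 30 min, 62921 and 55316 at 1 h, and 83840 and 63771 at 2 h. The 1 h libraries were the lowest, and the 2 h libraries spanned those of 0 h and 30 min. Ikaros had 4 summits in each 0 h library and 5 or 6 in each later one. CHD4 had 5 to 10 peaks in every library.

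The domains next in order held or flanked the following genes. Rank 2 held Adgrg1, an adhesion receptor, with 66086 kept bases. Rank 3 held Coro1b, an actin-binding coronin, and Ptprcap, a partner of CD45, with 59729. Rank 4 was a cluster of replication-dependent histone genes from Hist1h4h on, with 58815. Rank 5 lay next to Lrrc8c, an anion channel subunit, with 49041. The TNF family genes Ltb, Tnf and Lta were at rank 6, with 46611, and Dusp6, the phosphatase that inactivates ERK, was at rank 7, with 46171. Rank 8 held Ddit4, an inhibitor of mTORC1, with 45679. Rank 9 held Cxxc5, a CXXC zinc finger gene, with 43815, and rank 10 lay nearest to the taste receptor gene Tas1r2, with 43080. All 10 held H3K27ac in every library.

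No trend in total H3K27ac coverage of the large domains was detected after induction. Each of the 300, and each of the next 300, held at least 1 peak in all 8 H3K27ac libraries, so this count cannot show a change. Peaks in the 300 covered 6.26 and 5.91 Mb at 0 h, 7.17 and 6.31 Mb at 30 min, 5.93 and 5.66 Mb at 1 h, and 7.22 and 5.98 Mb at 2 h. The mean was lowest at 1 h, though the second 0 h library lay below the first 1 h library, and the 2 h replicates lay farther apart than any pair of time means. Over the 6 libraries after induction the trend with time was rho = 0 (exact permutation p = 1, adjusted p = 1, r = 0.0359), with adjustment over 10 tests here and below. Without the first 2 h replicate it was -0.632 (exact permutation p = 0.267, adjusted p = 0.533). As a share of the bases of each list, domain coverage was 14.6% and 15.3% at 30 min, 15% and 15.6% at 1 h, and 15.5% and 15.2% at 2 h. The trend of the share was rho = 0.359 (exact permutation p = 0.533, adjusted p = 0.79). With 6 libraries the smallest p of this test is 0.0222.

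The rank of acetylation was also followed. For each of the 1694 regions the percentile rank of the strongest overlapping peak in a list was taken, with 0 where none was called, and averaged. The means were 62 and 57.4 at 0 h, 70.6 and 61.7 at 30 min, 62 and 58.8 at 1 h, and 72.8 and 61.8 at 2 h. The trend after induction was rho = 0.239 (exact permutation p = 0.711, adjusted p = 0.79). Without the first 2 h replicate, whose list of 33664 peaks was the longest, it was -0.211. Few regions vanished. Of 1694, 57 (3.36%) were called in neither 2 h library, against 3.56% in the next 300 domains and 6.41% in all others, and the lost regions were short (median 685 bases against 2644). When stitched domains were ordered anew by the bases each later list covered in them, 247 to 264 of the 300 were still among the first 300.

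**Figure D2:**
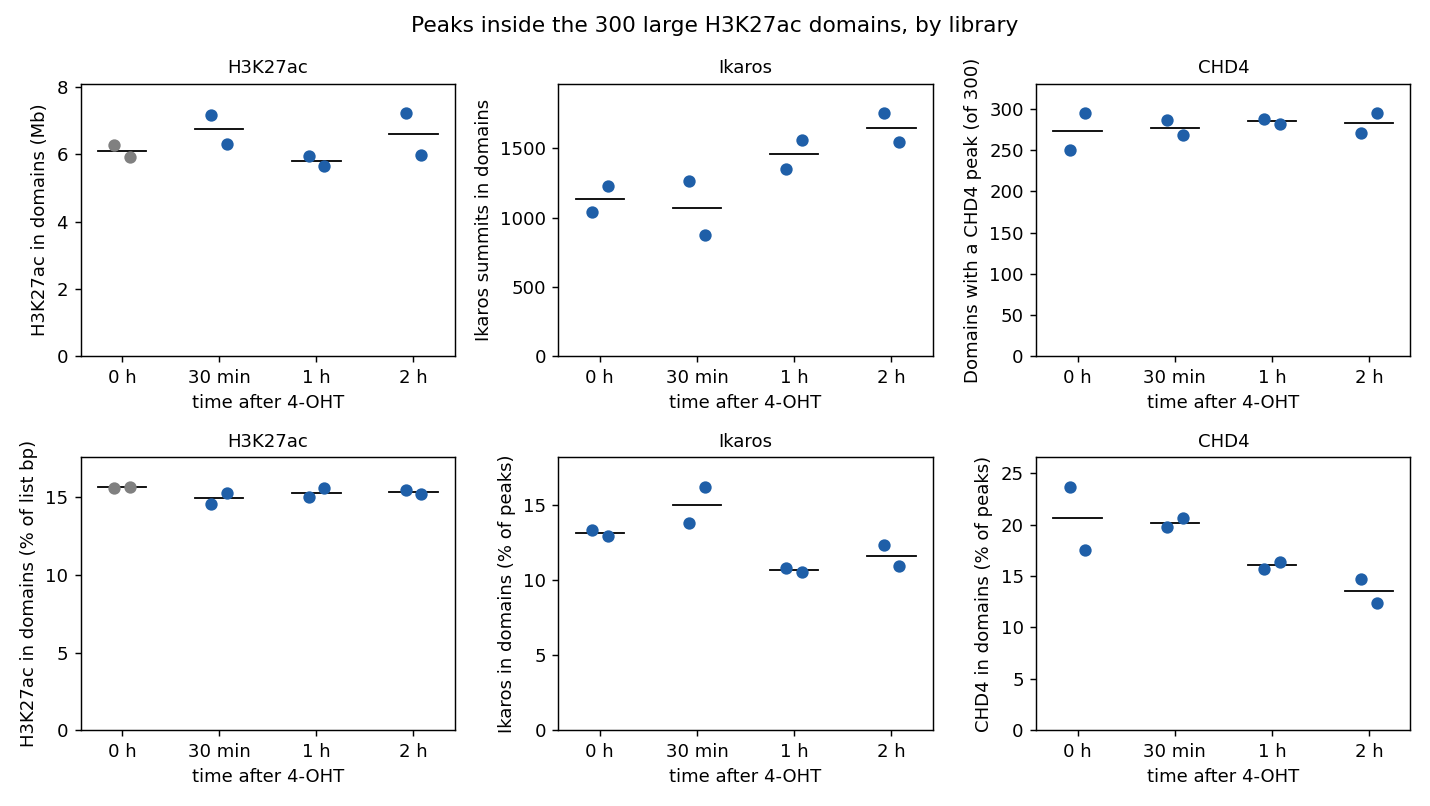
Values per library (points) and their means (lines) by time after 4-OHT for peaks inside the 300 domains, as amounts (top) and as a share of each list (bottom). Grey points are the 0 h H3K27ac lists that chose the domains. Ikaros summits rise from 1038 and 1228 to 1754 and 1541, while the Ikaros and CHD4 shares are lower at 1 h and 2 h than at 30 min.

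Coverage of single domains was compared between 30 min and 2 h. A domain was counted when both 2 h libraries lay below, or above, both 30 min libraries, which the choice of members did not use. With 2 libraries against 2 an exact test cannot give a p under 0.333, so these counts are a description set beside the share of all stitched domains that met the same condition. H3K27ac covered fewer bases at 2 h in 51 of the 300 (17%), against 36.9% of all 12231 stitched domains and 29.3% of the next 300. It covered more in 18 (6%), against 5.92% of all. The share lower was under that of all domains and the share higher was near it. These counts depend on the scale. With coverage as a share of the bases of each list, 57 were lower (19%, against 23.6% of all) and 80 were higher (26.7%, against 9.18% of all). With all lists cut to 21468 peaks, 84 were lower (38.2% of all) and 27 higher (5.8% of all). A total of 35 domains were lower and 12 higher on all 3 scales. By mean region rank, 28 were lower and 40 higher, with 16.7% of all stitched domains called in each direction. Against 0 h, a comparison that the choice of members used, 47 were lower (34.7% of all) and 127 higher (13.4% of all), and nothing is read from these.

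Among the 51 domains counted as lower, the largest falls by bases were at the following 5, all of them lower on all 3 scales. At rank 10, chr4:139708463-139764830, 54914 bp from the nearest coding TSS (Tas1r2), H3K27ac covered 37252 and 26892 bases at 30 min, 19426 and 17972 at 1 h, and 24120 and 17601 at 2 h. The change from the mean at 30 min to that at 2 h was -35%. At rank 28, which holds Selplg, the selectin ligand PSGL-1, along with Sart3, Iscu and Tmem119, coverage was 44372 and 38076 at 30 min and 36499 and 27638 at 2 h, a change of -22.2%. At rank 24, which holds Irf8, a transcription factor of B and myeloid cells, it was 43685 and 35733 at 30 min and 34870 and 26416 at 2 h, a change of -22.8%. For both of these the 30 min libraries were above the 0 h ones, so the fall is measured from a high value. At D10Jhu81e, rank 85, it was 20214 and 15191 at 30 min, 10874 and 9196 at 1 h, and 10006 and 7335 at 2 h, a change of -51%. At rank 66, chr12:31116359-31162489, nearest to Fam110c, it was 20100 and 11856 at 30 min, 11509 and 6728 at 1 h, and 9425 and 7659 at 2 h, a change of -46.5%.

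Among the 18 domains counted as higher, the 5 largest rises by bases included the domains of Ptprc and Pax5, and each was higher on all 3 scales. Ptprc, rank 163, encodes CD45, the receptor phosphatase of lymphocytes. H3K27ac covered 22864 and 21123 bases there at 30 min, 22813 and 21654 at 1 h, and 35895 and 25907 at 2 h, a change of 40.5%. At St3gal6, a sialyltransferase gene at rank 34, it was 47501 and 45696 at 30 min and 57233 and 51405 at 2 h, a change of 16.6%. At Pax5, rank 12, the regulator that commits cells to the B lineage, it was 44882 and 42931 at 30 min, 40376 and 41181 at 1 h, and 52649 and 47232 at 2 h, a change of 13.7%. The domain nearest to Akap13, an anchoring protein, at rank 214 went from 16653 and 16137 to 27818 and 19013, a change of 42.8%. The domain nearest to Lims1, an adaptor of integrin adhesion, at rank 118 went from 21943 and 19737 to 28861 and 24575, a change of 28.2%. In all 5 the first 2 h replicate, from the longest H3K27ac list, was above the second.

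**Figure D3:**
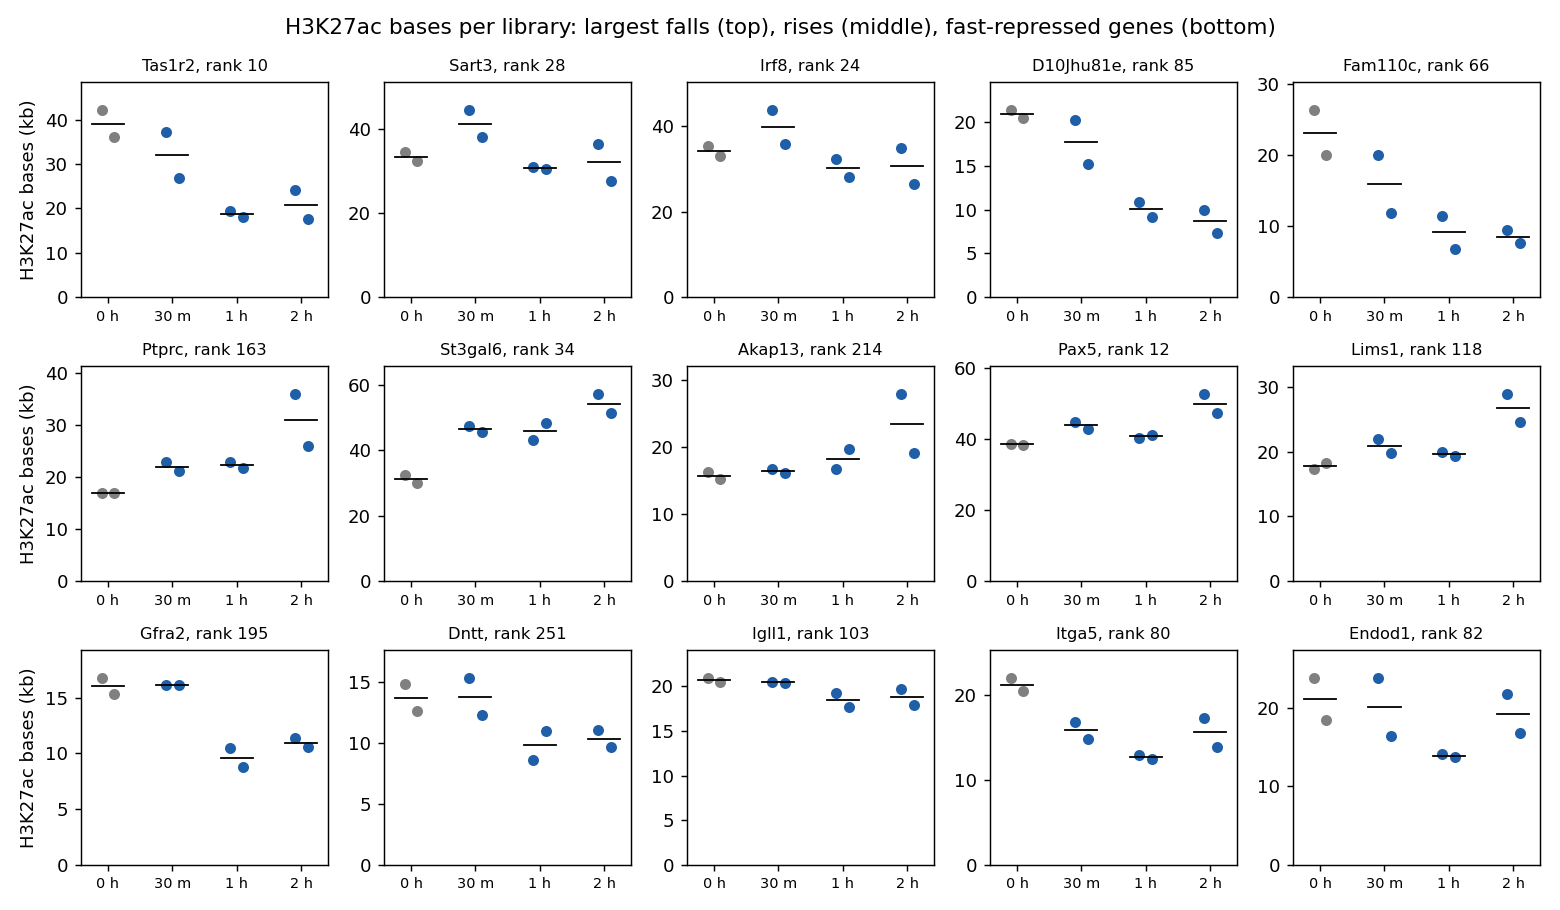
H3K27ac bases (kb) per library (points) with time means (lines) in 15 domains, each on its own axis from 0, named by the gene inside or nearest. Grey points are 0 h lists. Top, the 5 largest falls from 30 min to 2 h among the 51 domains counted as lower; middle, the 5 largest rises among the 18 counted as higher; bottom, domains of 5 fast-repressed genes, where the Gfra2, Dntt and Igll1 groups at 2 h lie below those at 30 min and the Itga5 and Endod1 groups overlap.

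HA-Ikaros peaks were already called in nearly all large domains without 4-OHT. Its summits fell in 287 and 297 of the 300 domains at 0 h and in 287 to 298 later. A total of 271 domains (90.3%) held a summit in all 8 Ikaros libraries, against 75% of the next 300 and 15.9% of all others, and none was without one in every library. The median number per domain was 3 and 4 at 0 h and 5 and 5 at 2 h, and the highest was 23. Summits inside the domains numbered 1038 and 1228 at 0 h, 1264 and 873 at 30 min, 1349 and 1561 at 1 h, and 1754 and 1541 at 2 h. Those of 1 h and 2 h were all above those of 0 h. The trend over the 8 libraries was rho = 0.83 (r = 0.803, exact permutation p = 0.0198, adjusted p = 0.0661), which does not pass the adjustment. It did without the second 30 min replicate (rho = 0.899, adjusted p = 0.0423), the shallowest Ikaros library.

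The rise went with the length of the lists. The Ikaros lists held 7822 and 9527 peaks at 0 h, 9181 and 5373 at 30 min, 12447 and 14874 at 1 h, and 14225 and 14179 at 2 h. With every list cut to its 5373 strongest peaks, the trend of summits inside the domains turned to rho = -0.39 (exact permutation p = 0.361, adjusted p = 0.516). The share of Ikaros peaks that lay in the domains was 13.3% and 12.9% at 0 h, 13.8% and 16.2% at 30 min, 10.8% and 10.5% at 1 h, and 12.3% and 10.9% at 2 h. Both 1 h and both 2 h values were below all earlier ones, and the trend was rho = -0.586 (exact permutation p = 0.153, adjusted p = 0.383). The part of list length in the rise was not tested beyond these values.

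Per base, Ikaros summits were slightly sparser in the largest domains than in the next 300. Summits in kept regions numbered 160 and 189 per Mb at 0 h and 265 and 235 at 2 h in the 300 domains. In the next 300 they numbered 165 and 196 at 0 h and 294 and 268 at 2 h. The density in the 300 was lower in 8 of 8 libraries, by a mean log2 ratio of -0.13 (0.917-fold, exact two-sided sign-flip permutation p = 0.00781, the smallest this design allows, adjusted p = 0.0516). This too does not pass the adjustment. The 300 held 6.41 Mb of kept bases and the next 300 held 3.62 Mb. Kept bases ordered the domains and are also the divisor here. The comparison is thus tied to the choice of members, and nothing about Ikaros binding is concluded from its p.

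Across the 300 domains, the number of Ikaros summits at 2 h went with kept bases (Spearman rho = 0.388), with span (rho = 0.427) and with the number of CHD4 peaks (rho = 0.67). These are descriptions over domains that share their libraries. Coro1b (rank 3) held the most at 2 h, with 23 and 14 summits, after 15 and 16 at 0 h. It was followed by Dusp6 with 20 and 15, the TNF family domain (rank 6) with 17 and 13, and Cxxc5 with 12 and 16. Abt1, rank 283, a regulator of basal transcription that lies beside the histone clusters, held 16 and 12 in only 14313 kept bases.

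More domains gained Ikaros summits than lost them. Both 2 h libraries were above both 0 h libraries in 129 domains (43%), against 18% of all stitched domains and 48% of the next 300, and below in 12 (4%), against 2.83% of all and 6% of the next 300. With lists of equal size the balance turned, with 42 domains above (5.86% of all) and 58 below (6.23% of all). On both scales 32 domains rose and 11 fell. Among the 129, the largest gains were at Dusp6, from 9 and 7 summits to 20 and 15, and Abt1, from 4 and 6 to 16 and 12. The histone cluster from Hist1h2ah on, rank 161, went from 2 and 2 to 11 and 8. Bcat1, a branched-chain aminotransferase gene at rank 71, went from 2 and 2 to 9 and 8. Rinl, a Rab exchange factor gene at rank 83, went from 4 and 4 to 12 and 9. Of these, Dusp6 and Hist1h2ah did not rise with lists of equal size, and Abt1, Bcat1 and Rinl did.

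The 12 domains in which summits fell included those of Pxn and Dntt. D10Jhu81e went from 7 and 8 summits at 0 h to 2 and 4 at 2 h, Pde2a, a phosphodiesterase gene, from 8 and 8 to 5 and 5, and Pxn, which encodes the adhesion adaptor paxillin, from 7 and 8 to 6 and 4. The domain nearest to Fam110c went from 2 and 2 to 0 and 0, and the domain at Dntt from 4 and 3 to 1 and 2. The domain nearest to Foxo1, a transcription factor of B cell development, 120969 bp from its TSS, went from 6 and 5 to 4 and 4. Zmiz1, a transcriptional coregulator gene, went from 5 and 5 to 3 and 4. The others were at or nearest to Fam133b (inside the Cdk6 gene), Zfp422, Isyna1, Ergic2 and Vamp5. All but Isyna1 also fell with lists of equal size. The 0 h Ikaros libraries were the deepest, and the part of depth in these falls was not tested.

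**Figure D4:**
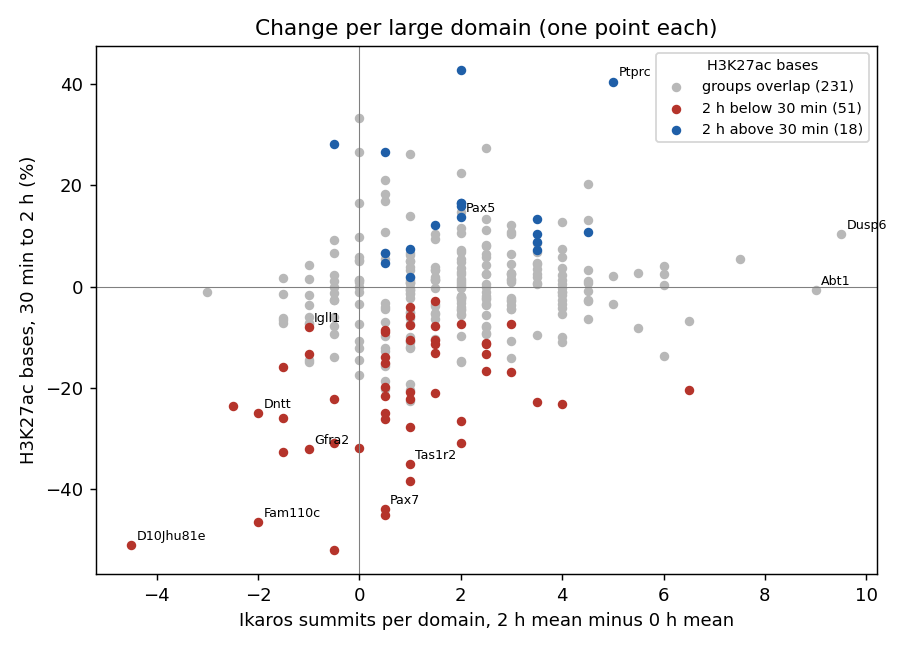
Each point is 1 of the 300 domains. The horizontal axis is the mean number of Ikaros summits at 2 h minus that at 0 h and the vertical axis is the percent change of H3K27ac bases from the 30 min to the 2 h mean, with colour for the 51 domains lower and the 18 higher at 2 h. D10Jhu81e and Fam110c lie low on both axes and Ptprc high on both, while Dusp6 and Abt1 gained the most summits, with H3K27ac changes of 10.4% and -0.619%.

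Ikaros summits and H3K27ac bases were set side by side in each domain. Of the 12 domains in which summits fell, 6 were among the 51 with fewer H3K27ac bases at 2 h and 0 were among the 18 with more, against 36.9% and 5.92% of all stitched domains and 17% and 6% of the 300. Of the 129 in which summits rose, 12 had fewer bases and 9 had more. Across the 300, the change in summits and the percent change in H3K27ac bases had a Spearman rho of 0.269, again a description over domains from the same libraries.

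Within the domains, Ikaros and CHD4 sat in the same long regions. Of the 1694 kept regions, 822 overlapped an Ikaros peak in both 2 h libraries and 493 overlapped none in any Ikaros library. The bound regions had a median length of 4959 bases and 50.1% lay at promoters. The unbound ones had a median of 1033 bases and 14% lay at promoters. CHD4 was called in 49% to 84.5% of the bound regions across the 8 CHD4 libraries and in 0.406% to 11.6% of the unbound ones. Longer regions have more room for a peak, and regions are not replicates, so these shares are a description. Of the bound regions, 547 were bound in both 0 h libraries already and 141 in neither. In these 141, CHD4 was called in 16.3% and 44.7% at 0 h and in 45.4% and 68.1% at 2 h. Over all 1694 regions it was called in 27.3% and 45.9% at 0 h and in 35.4% and 53.1% at 2 h, and in the 547 in 62% and 85.4% and then 70.6% and 88.8%. A difference between these classes was not tested.

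No trend over time was detected in the H3K27ac rank of bound against unbound regions. The mean percentile rank of bound minus unbound regions was 34.4 and 46 at 30 min, 47.6 and 48.6 at 1 h, and 31.6 and 44.1 at 2 h. Its trend had rho = -0.239 (exact permutation p = 0.711, adjusted p = 0.79). Without the first 2 h replicate the rho was 0.264. Of the bound regions 3 of 822 were called in neither 2 h H3K27ac library, and of the unbound regions 38 of 493. Of the 57 regions lost, 38 thus had no Ikaros peak in any library. Unbound regions made up 29.1% of all regions in the domains. They were shorter and already ranked low at 0 h, with means of 31 and 24.8 against 82.4 and 79.7 for bound ones.

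CHD4 covered most large domains at every time. It was called in 250 and 295 of the 300 domains at 0 h, 286 and 268 at 30 min, 288 and 282 at 1 h, and 271 and 295 at 2 h. The replicates at 0 h differed by more than any pair of time means (rho = 0.221, exact permutation p = 0.606, adjusted p = 0.79). Without the first 0 h replicate, whose list of 2488 peaks was the shortest, the rho was -0.0648, and with all lists cut to that length it was -0.732 (exact permutation p = 0.0548, adjusted p = 0.137). CHD4 was called in all 8 libraries in 218 domains (72.7%), against 44.7% of the next 300 and 4.62% of all others. The domain at Pax7, rank 229, a muscle and neural crest transcription factor gene, was the 1 domain with no CHD4 peak in any library.

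The share of CHD4 peaks that lay in the large domains was 23.7% and 17.5% at 0 h, 19.8% and 20.6% at 30 min, 15.7% and 16.4% at 1 h, and 14.7% and 12.4% at 2 h. Both 2 h values were below every other value. The trend was rho = -0.878 (r = -0.833, exact permutation p = 0.0103, adjusted p = 0.0516) and did not pass the adjustment. It did without the second 0 h replicate (rho = -0.973, adjusted p = 0.0317) and without either 30 min replicate (rho = -0.918, adjusted p = 0.0476). The CHD4 lists grew from 2488 and 6000 peaks at 0 h to 5523 and 9593 at 2 h, and with all lists cut to 2488 peaks the trend of the share was rho = -0.884 (exact permutation p = 0.00635, adjusted p = 0.0635). The density of CHD4 peaks per Mb of kept regions was also compared between the 300 domains and the next 300. The mean log2 ratio was 0.02 (5 of 8 libraries above 0, exact sign-flip permutation p = 0.555, adjusted p = 0.79). Against all other stitched domains the ratio was 0.39 (exact sign-flip permutation p = 0.0156, adjusted p = 0.0661). As for Ikaros, kept bases ordered the domains and are also the divisor here. Both comparisons are thus tied to the choice of members, and nothing about CHD4 binding is concluded from their p.

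Few domains gained or lost CHD4 outright. Peaks in both 2 h libraries and in neither of the 0 h ones were seen in 2 domains (4.65% of all stitched domains), the histone cluster from Hist1h2bl on (rank 113) and Cdkn2c (rank 264), which encodes the cyclin-dependent kinase inhibitor p18. The reverse held in 1 domain, Dido1 at rank 92 (0.867% of all). With CHD4 present in most of the 300 from the start, few could gain it.

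The domains that hold clusters of replication-dependent histone genes, which are transcribed in S phase, had little CHD4 at 0 h. They were grouped after their values were seen. Domains with a lone histone gene outside these clusters, H2afy (rank 32) and H2afx (rank 155), were left out. At H2afy CHD4 had 2 and 5 peaks at 0 h and was called in all 8 libraries. The 5 domains with such clusters are ranks 4, 40, 41, 113 and 161 and hold 14, 10, 9, 8 and 5 histone genes. Ikaros summits summed over the 5 numbered 6 and 18 at 0 h, 18 and 12 at 30 min, 36 and 39 at 1 h, and 38 and 43 at 2 h. As a share of the Ikaros list they made up 0.0767% and 0.189% at 0 h and 0.267% and 0.303% at 2 h, so the sum was higher relative to the lists as well. In each of the 5 both 2 h libraries were above both 0 h libraries, against 43% of the 300 and 18% of all stitched domains, and with lists of equal size this held for 3, against 14% and 5.86%. CHD4 peaks numbered 0 and 4 at 0 h, 5 and 1 at 30 min, 11 and 6 at 1 h, and 25 and 10 at 2 h. The CHD4 share of its list was 0% and 0.0667% at 0 h and 0.453% and 0.104% at 2 h, and none of the 5 held CHD4 in all 8 libraries, against 72.7% of the 300, 44.7% of the next 300 and 4.62% of all others. H3K27ac covered 166 and 157 kb in them at 30 min and 172 and 161 kb at 2 h, and these overlapped. At the largest, the cluster from Hist1h4h on, Ikaros had 3 and 9 summits at 0 h and 11 and 13 at 2 h, and CHD4 had 0 and 1 peaks at 0 h and 7 and 5 at 2 h.

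**Figure D5:**
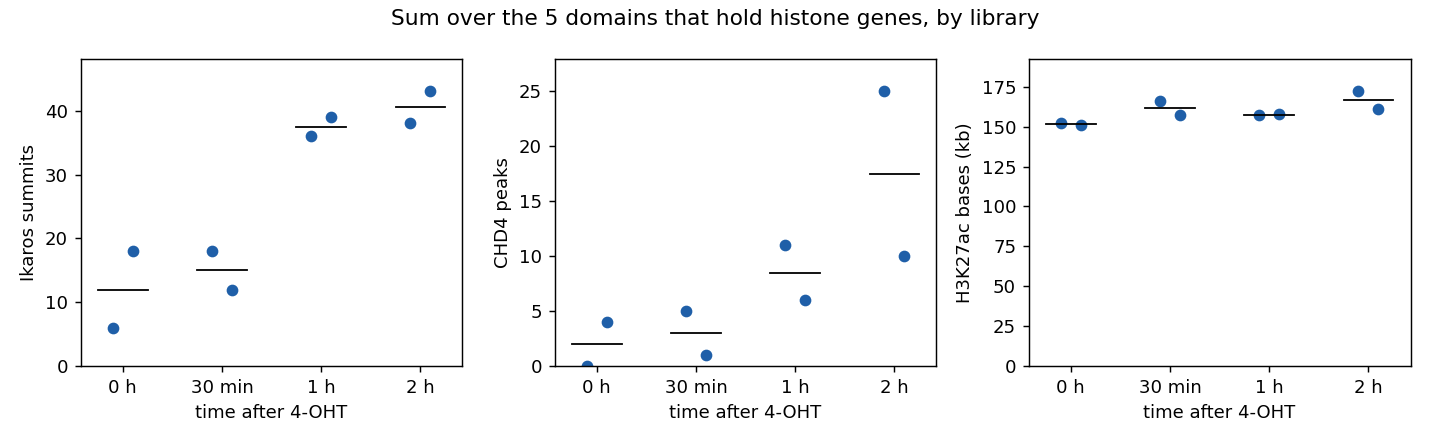
Ikaros summits, CHD4 peaks and H3K27ac bases (kb) per library (points) with time means (lines), summed over the 5 domains that hold clusters of replication-dependent histone genes. Ikaros goes from 6 and 18 at 0 h to 38 and 43 at 2 h and CHD4 from 0 and 4 to 25 and 10, while H3K27ac stays between 151 and 172 kb.

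The 475 genes with a TSS in a domain included several regulators and receptor genes of B cells. Of all protein-coding genes 2.17% had a TSS in one of the 300, or 5.21% of those with a TSS in any stitched domain. Of 22 B-lineage transcription factors it was 6, namely Pax5, Ikzf1, Irf8, Runx1, Sox4 and Gfi1b. Of 18 genes of pre-B and B cell receptor signalling it was 7, which were the signalling chains Cd79a and Cd79b, the surrogate light chain genes Igll1, Vpreb1 and Vpreb3, the phospholipase Plcg2 and the phosphatase Ptpn6. Of 17 genes taken from those that the study names as quickly repressed it was 7, which were Igll1, Vpreb1, Dntt, Endod1, Itga5, Gfra2 and Hs3st3b1. The list leaves out others that the study names, among them Lrrfip1 and Espnl, which had no TSS in one of the 300. The study chose some of the 17 partly for their H3K27ac in these same samples, so their place here is no independent evidence. Of 8 cyclins and partners it was 1 (Ccnd3), and of 12 adhesion genes 2 (Itga5 and Selplg). None of 12 genes of the IL-7 receptor and STAT5 pathway and none of 13 NuRD subunits was included. The TSS of Ebf1 (rank 322) and that of Cdk6 (rank 327) lay in domains just outside the 300. Counting by TSS leaves out 4 listed genes whose bodies overlapped one of the 300. The domains at ranks 23 and 228 lay wholly inside Ebf1, that at rank 16, named after Fam133b, inside Cdk6, and that at rank 203 inside Pik3ap1, while that at rank 78 overlapped Plekho2 in part.

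The domains of the B-lineage transcription factors differed in direction. The 6 factors occupy 7 domains, since Runx1 has start sites in 2 of them (ranks 59 and 136). From 30 min to 2 h, H3K27ac bases fell in 2 (Irf8 and the Runx1 domain at rank 59) and rose in 1 (Pax5), against 36.9% and 5.92% of all stitched domains and 17% and 6% of the 300, with a median change of -5.4%, against -1.53% over the 300 and -7.33% over all stitched domains. As a share of each list the median was -0.874%, against 3.57% and -2.12%. At the rank 59 Runx1 domain the values were 28269 and 27339 at 30 min and 26295 and 22080 at 2 h. All 7 held Ikaros and CHD4 in all 8 libraries each, against 90.3% and 72.7% of the 300. Ikaros summits were higher at 2 h than at 0 h in 2, the Runx1 domain at rank 136 and the Gfi1b domain, against 43% of the 300 and 18% of all. With lists of equal size 1 was higher (Gfi1b) and 2 were lower (Pax5 and Ikzf1), against 14% and 19.3% of the 300. At the endogenous Ikzf1 gene, rank 53, H3K27ac covered 25191 and 22903 bases at 30 min and 27808 and 24986 at 2 h, and Ikaros had 5 and 7 summits at 0 h and 6 and 6 at 2 h, so both groups overlapped. On the other scales they did not, with H3K27ac higher at 2 h as a share of each list and with lists of equal size, and Ikaros summits lower with lists of equal size.

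The 7 quickly repressed genes lie in 6 domains. Of these, 3 had fewer H3K27ac bases at 2 h than at 30 min and 0 had more, against 36.9% and 5.92% of all stitched domains. The median change was -5.96%, against -1.53% over the 300 and -7.33% over all. As a share of each list it was -0.751%, against 3.57% and -2.12%. Gfra2, rank 195, the neurturin coreceptor gene, had 16146 and 16133 bases at 30 min, 10524 and 8755 at 1 h, and 11364 and 10567 at 2 h. Dntt, rank 251, which encodes terminal transferase, had 15362 and 12283 at 30 min and 11087 and 9661 at 2 h. The domain of Igll1 and Vpreb1, rank 103, is a single region of 20923 bases and went from 20435 and 20406 to 19680 and 17889. As a share of each list the Igll1 domain no longer counted as lower, and Gfra2 and Dntt did. At Itga5, rank 80, the integrin alpha 5 gene, coverage was 21970 and 20388 at 0 h, 16815 and 14805 at 30 min, and 17315 and 13861 at 2 h, so the later groups overlapped and lay below the 0 h values that chose it. At Endod1, rank 82, it was 23769 and 16384 at 30 min, 14080 and 13687 at 1 h, and 21791 and 16789 at 2 h, and the 1 h libraries were the lowest. Hs3st3b1, rank 288, a heparan sulfate sulfotransferase gene, overlapped as well, with 17186 and 15064 at 30 min and 16462 and 14735 at 2 h. All 6 held Ikaros in every library, against 90.3% of the 300, and CHD4 was called in all 8 in 3 of them, against 72.7%. Ikaros summits were lower at 2 h than at 0 h in 1 (Dntt), against 4% of the 300 and 2.83% of all, and higher in 0, against 43% and 18%. With lists of equal size they were lower in 4 (Itga5, Igll1, Gfra2 and Dntt), against 19.3% of the 300 and 6.23% of all.

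The 7 receptor signalling genes lie in 6 domains. That of Igll1 and Vpreb1 was the 1 with fewer H3K27ac bases at 2 h and none had more, against 17% and 6% of the 300 and 36.9% and 5.92% of all stitched domains. The median change was -4.41%, against -1.53% over the 300, and as a share of each list both turned positive, to 0.893% and 3.57%. At Cd79a, rank 143, coverage was 20408 and 19434 at 30 min and 19515 and 20679 at 2 h, and at Cd79b, rank 241, it was 16993 and 15093 at 30 min and 16121 and 14822 at 2 h. Ikaros summits went from 4 and 5 at 0 h to 7 and 7 at 2 h at Cd79b and from 5 and 5 to 6 and 6 at Plcg2, so that 2 of 6 were higher, against 43% of the 300 and 18% of all. With lists of equal size 0 were higher and 1 was lower (Igll1), against 14% and 19.3% of the 300. At Ccnd3, rank 33, a G1 cyclin gene, H3K27ac covered 45203 and 42562 bases at 30 min and 52375 and 39197 at 2 h, and these groups overlapped.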

How the data were processed

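H3K27ac, HA-Ikaros and CHD4 ChIP-seq peak lists were used for 24 libraries, and the 8 input libraries were not analysed here. The authors aligned reads to mm10 with Bowtie2 2.4.2, marked duplicates with Picard 2.23.7 and called peaks with MACS2 2.2.7.1, in broad mode for CHD4. Settings for the 30 min libraries, the input paired with each library and any use of a blacklist on the peak lists are not given in the sources used here. Each deposited list gives a display score (not used), a fold enrichment (ratio) over the local level, and p-values and q-values written by MACS2 as −log10, and narrow lists give a summit offset, a deposited position of another kind. No read counts per region were used, so no count model was run. Peak numbers and covered bases can depend on depth, though the deepest Ikaros libraries did not hold the most peaks.

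Domains were built as the report states, with an overlap of at least 1 bp. Genes came from GENCODE M21 and sequence from GRCm38. Domains are named by a protein-coding TSS inside, else the nearest. Named domains were the 10 with most kept bases, the 5 largest falls and rises of H3K27ac from 30 min to 2 h among domains whose libraries did not overlap, the 5 with most Ikaros summits and the 5 largest gains among those that did not overlap, and those of the gene lists. Ikaros losses and CHD4 changes were named in full, and the printed sites and histone clusters were chosen after their values were seen. The members and the gene lists were chosen with earlier results of these data known. Library values were tested with Python 3.11.15, numpy 2.4.6 and scipy 1.17.1 by exact two-sided permutation tests of Spearman's rho with time, or sign-flip tests of a log2 ratio, with Benjamini-Hochberg adjustment over 10 results. P-values measure the spread between these libraries, which may be technical. Coverage was recovered from the fold and p of every 4th narrow peak with a −log10 p under 40, at the most common background level. The scale to the input was the one that put most pileups within 0.03 of a whole number. The share that did, at least 99.3%, is thus a measure of fit and not a separate check. The steps were tested on simulated data. Alternatives were a −log10 q or a fold of at least 3, lists of equal size, a 5 kb gap, 150 or 600 domains, ranking by span, other comparison domains, an overlap of 50%, Pearson's r, the replicate number as a block and each library left out.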

Additional observations from a re-analysis of the deposited data

How the results depend on the processing

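None of the 10 tested results passed the adjusted threshold of 0.05, and none passed under the alternatives other than leaving out a library. For H3K27ac covered Mb the rho was 0, which has no direction to reverse. For the other 9, 5 of 83 such alternatives reversed. With lists of equal size, the trend of Ikaros summits in domains reversed to -0.39 and that of domains with CHD4 to -0.732. The CHD4 density ratio (log2) reversed to -0.04 with a 5 kb gap, -0.10 with 150 domains and -0.02 with ranking by span. The cause was not tested.

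With each library left out in turn, rho ranged from -0.632 to 0.264 for covered Mb, from 0 to 0.58 for the H3K27ac share, from -0.211 to 0.58 for rank, and from -0.632 to 0.264 for bound minus unbound regions. It ranged from 0.771 to 0.899 for Ikaros summits, from -0.0648 to 0.606 for domains with CHD4, and from -0.973 to -0.826 for the CHD4 share, and was -0.569 each time for the Ikaros share. The log2 density ratio ranged from -0.14 to -0.11 for Ikaros and from -0.00 to 0.04 for CHD4. The adjusted p fell below 0.05 in 1 of 8 omissions for Ikaros summits and 3 of 8 for the CHD4 share, which the report names.

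Scales added after seeing the data moved 4 counts of domains. With lists of equal size, those with less H3K27ac at 2 h went from 51 to 84, those with more Ikaros from 129 to 42 and those with fewer from 12 to 58. As a share of list bases, those with more H3K27ac went from 18 to 80.

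Little sign of pairing by replicate number was seen. Correlations of same-numbered deviations over 12231 domains ran from -0.0624 to 0.24 and most were near 0. The highest were 0.24 for CHD4 (0 h with 2 h) and 0.189 for H3K27ac (30 min with 1 h). Peak lists cannot show whether same-numbered libraries were prepared together, and the labels do not say. With the replicate number as a block, rho was 0.781 for Ikaros summits (adjusted p = 0.295) and -0.878 for the CHD4 share (adjusted p = 0.208), and the Ikaros density ratio stayed -0.13 (adjusted p = 0.339, smallest possible p 0.125). No call changed.

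Ikaros depth ran from 1.98 to 3.59 fragments per base and CHD4 depth is unknown, which limits statements on absent peaks.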

Other observations

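Some neighbouring domains both had less H3K27ac at 2 h than at 30 min, which was noticed after the values were seen. Of 25 pairs of neighbours among the 300 less than 50 kb apart, both were counted as lower in 4, 1 was lower in 1 pair and neither in 20. Taken singly, 17% of the 300 and 36.9% of all stitched domains were lower. The share among neighbouring pairs of other stitched domains was not counted, so the 4 pairs are a description. On chromosome 4 the domain nearest to Tas1r2 (rank 10) and that at Pax7 (rank 229, chr4:139812235-139846178) were 47.4 kb apart. At Pax7 the bases were 15536 and 11748 at 30 min, 7303 and 4548 at 1 h, and 8306 and 6991 at 2 h, a change of -43.9%. On chromosome 6 the domain nearest to Ergic2 (rank 112, chr6:148244985-148275158) and that nearest to Tmtc1 (rank 273, chr6:148319098-148353300) were 43.9 kb apart. The first went from 16653 and 13160 bases at 30 min to 10553 and 9521 at 2 h, and the second from 11210 and 8734 to 4339 and 5225, a change of -52%. Few Ikaros summits were called in the pair on chromosome 6 at 2 h, with 0 and 0 at rank 112 and 0 and 1 at rank 273. At the domain nearest to Tas1r2 7 and 4 were called. On chromosome 12 the pair at and nearest to Irf2bpl (ranks 242 and 206) was 21.3 kb apart and changed by -22.1% and -7.81%. On chromosome 15 the domains at Rapgef3 (rank 296) and Hdac7 (rank 268) were 28.3 kb apart and changed by -20.9% and -4.07%. As a share of each list, the domains at ranks 206 and 268 no longer counted as lower.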
